A study of Mus musculus with 6 samples.

Results

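SRC family kinases are non-receptor tyrosine kinases, and their transcripts were compared between 4T1 mouse mammary carcinoma cells that were parental (P) or resistant to axitinib (AxR), an inhibitor of VEGF receptors. The set held 10 of the 53465 genes in the deposited table and was chosen by name: the family members Src, Fyn, Yes1, Lyn, Lck and Fgr, the SRC-like kinase Frk, the inhibitory kinases Csk and Matk, and the Csk adaptor Pag1. Of these, 9 had enough counts to be tested. RNA of each line was sequenced in 3 libraries. AxR cells were grown out of spontaneous metastases of 4T1 tumors in Balb/c mice that received axitinib at 100 mg/kg/day before and after tumor removal, and were then kept in 0.5 μM axitinib for over 2 months. P cells are called vehicle-treated in the study's text and carry no treatment label, although a growth label puts 0.5 μM axitinib in the medium of all 6 samples. All 6 libraries came from 1 parental and 1 resistant line, so growth in the animal, drug exposure and culture history cannot be told apart. Nothing in the labels says that the 3 libraries of a line were separate cultures, and p-values then measure the spread between these libraries, which may be technical.

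An SRC family kinase is anchored to membranes by a lipid on its N terminus, binds partners through SH3 and SH2 domains, and phosphorylates substrates at focal adhesions and cell junctions. Csk, and in some cells its relative Matk, phosphorylates a tyrosine in the C-terminal tail, which then folds back onto the kinase's own SH2 domain and holds it inactive. Pag1 is a membrane adaptor that brings Csk to the kinases. In carcinoma cells the family is best known for passing signals from growth factor receptors and integrins to the cytoskeleton.

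The N-terminal ends of the coding sequences are shown because they carry the membrane anchor and differ between members. All start with a methionine codon followed by a glycine codon, the residue that carries the myristoyl group. Capitals mark cysteine codons, possible sites of palmitoylation, in the first 12 codons of the principal transcript in GENCODE M21 (GRCm38).
Src: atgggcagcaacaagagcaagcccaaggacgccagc
Fyn: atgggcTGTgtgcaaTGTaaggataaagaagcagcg
Yes1: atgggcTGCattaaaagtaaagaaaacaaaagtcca
Lyn: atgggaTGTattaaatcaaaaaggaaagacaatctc
Lck: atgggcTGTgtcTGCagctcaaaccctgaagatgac
Fgr: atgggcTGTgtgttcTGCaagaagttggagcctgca
Frk: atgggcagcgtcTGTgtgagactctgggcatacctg

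A cysteine codon stood at position 3 in 5 of the 7 kinases, counted from the start codon. Src had none in its first 12 codons, and in Frk the first was at codon 5.

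The last 48 bases of each coding sequence, stop codon included, hold the tail on which Csk acts. The last tyrosine codon is in capitals, and in Src, Fyn, Yes1, Lyn, Lck and Fgr it encodes the regulatory tyrosine. Csk is shown for contrast, since its own last tyrosine codon lies 34 codons before the end and outside the stretch printed.
Src: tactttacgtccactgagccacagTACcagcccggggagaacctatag
Fyn: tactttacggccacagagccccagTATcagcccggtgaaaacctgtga
Yes1: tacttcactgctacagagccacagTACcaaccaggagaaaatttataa
Lyn: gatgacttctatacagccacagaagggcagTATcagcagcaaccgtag
Lck: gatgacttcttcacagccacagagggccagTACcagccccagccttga
Fgr: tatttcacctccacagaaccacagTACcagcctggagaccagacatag
Frk: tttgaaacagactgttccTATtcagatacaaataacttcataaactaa
Csk: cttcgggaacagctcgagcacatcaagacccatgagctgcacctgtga

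In Src, Fyn, Yes1 and Fgr 6 codons followed this tyrosine codon, in Lyn and Lck 4, and in Frk 8. Without their stop codons, these coding sequences span chr2:157457085-157469958 (plus strand) for Src, chr10:39511750-39563969 (plus strand) for Fyn, chr5:32640339-32684756 (plus strand) for Yes1, chr4:3738730-3789941 (plus strand) for Lyn. The others span chr4:129548801-129558185 (minus strand) for Lck, chr4:132986163-133000340 (plus strand) for Fgr, chr10:34484005-34608568 (plus strand) for Frk and chr9:57627324-57631381 (minus strand) for Csk.

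Before the family is described, the libraries themselves were examined. Estimated counts summed to between 15495260 and 17294525 per library. Libraries of a line differed by more than counting noise, with a chi-square per degree of freedom of 19.7 between AxR replicates 1 and 3 and from 5.10 to 8.48 between the other pairs. The range with each library left out is therefore given beside each member tested. Of 8 epithelial markers 7 were tested, and AxR cells had more of 6 and less of 1 (Krt19), while Krt5 had no count. At an adjusted p under 0.05 in edgeR, 32.8% of the 13550 genes tested rose and 30.8% fell. The epithelial markers summed to between 1887 and 2107 CPM (counts scaled to the normalized library size) in P libraries. In AxR libraries they summed to between 3004 and 3184 CPM. Of 13 leukocyte markers 6 had no count in any library, among them Cd3e and Tyrobp, and Ptprc had at most 2 counts. Their sum lay between 6.14 and 8.28 CPM in P and between 16.6 and 17.5 CPM in AxR libraries, and most of it was Cd68 and Cd14, which rose by 1.24 and 1.26 on the log2 scale. Fibroblast and endothelial markers summed to at most 1.02 and 0.635 CPM in any library. The part of these markers in the results was not tested.

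Transcripts of the family shifted in both directions. Of the 9 members tested, Fyn, Frk and Matk were higher in AxR cells and Src, Yes1, Lyn, Csk and Pag1 were lower. A call required a Benjamini-Hochberg adjusted p under 0.05 over the 13550 genes tested in edgeR (quasi-likelihood test). Across all genes tested, 32.8% were higher and 30.8% were lower by the same rule, so a call in itself is common between these lines. For 8 of the 9 members no AxR library fell within the range of the P libraries, and such separation was seen in 68.3% of all genes tested. In the exact permutation test (two-sided) each of these 8 reached p = 0.1, and 3 libraries against 3 cannot give less. The median log2 fold change of the 9 members was -0.43, against 0.01 for all genes tested. In bulk RNA, fewer cells with a transcript and less of it per cell cannot be told apart.

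Src, the founding member and a kinase of focal adhesions, was the most abundant member and fell most in log2 fold change among those tested. Src (ENSMUSG00000027646.15, chr2:157418444-157471862, plus strand) had 193, 204 and 190 CPM in P replicates 1 to 3 and 88.4, 98.5 and 100 CPM in AxR replicates 1 to 3. Every AxR library was thus close to 50% of the P level, with no overlap. AxR cells thus had 48.9% of the P level, a log2 fold change of -1.03 ± 0.0581 (SE; edgeR adjusted p = 8.82e-10), which ranged from -1.06 to -0.97 as each library was dropped. Of all genes tested, 12.3% had a larger absolute log2 fold change.

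Fyn, which also acts downstream of adhesion and of antigen receptors, moved the other way. Fyn (ENSMUSG00000019843.14, chr10:39368855-39565381, plus strand) had 44.6, 48.1 and 45.6 CPM in P libraries and 78.7, 76.8 and 91.4 CPM in AxR libraries. The P libraries lay close together, and AxR replicate 3 was the highest of the 6. This 1.79-fold rise, 0.84 ± 0.0699 on the log2 scale (SE; edgeR adjusted p = 6.86e-08), was 0.76 to 0.89 as each library was dropped.

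Yes1, the third kinase of the family that most tissues express, fell modestly. Yes1 (ENSMUSG00000014932.15, chr5:32611171-32687057, plus strand) had 127, 108 and 132 CPM in P libraries and 96.3, 91.1 and 85.6 CPM in AxR libraries. P replicate 2 came nearest to the AxR libraries without reaching them. AxR cells had 74.4% of the P level, or -0.43 ± 0.072 on the log2 scale (SE; edgeR adjusted p = 1.21e-04), and dropping single libraries gave -0.51 to -0.37.

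**Figure D1:**
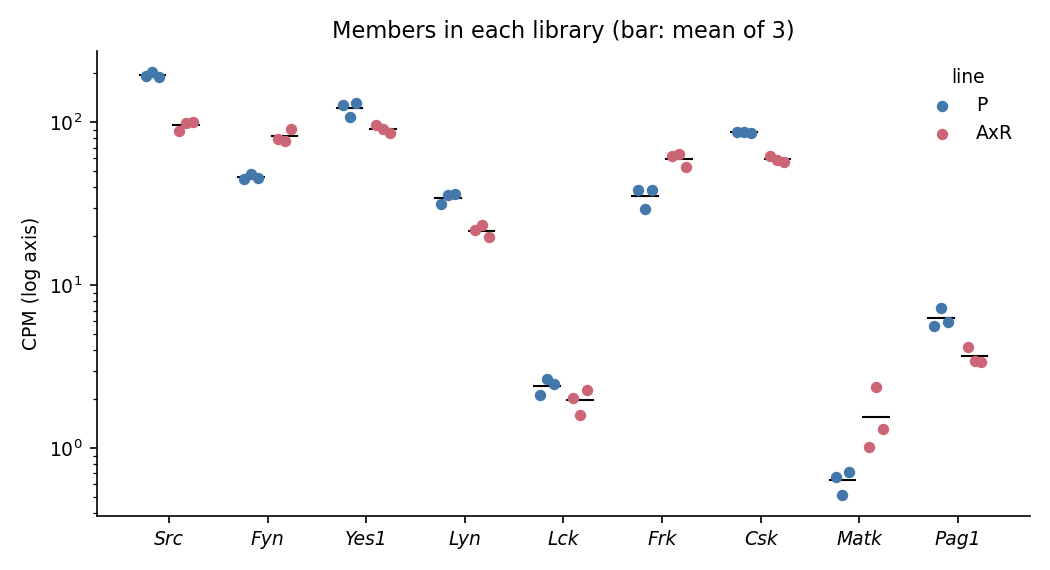
Level of each member in each of the 6 libraries, in CPM on a log axis, with P in blue, AxR in red and the mean of 3 libraries as a bar. Src fell from a mean of 196 to 95.7 CPM and Fyn rose from 46.1 to 82.3 CPM, the libraries of the lines overlap only for Lck, and Fgr, with no count, is not drawn.

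Lyn, Lck and Fgr are best known from blood cells. Lyn, which signals in B cells and myeloid cells and is also expressed in carcinoma cells (ENSMUSG00000042228.14, chr4:3678115-3813122, plus strand), had 31.5, 35.6 and 36.4 CPM in P libraries and 21.8, 23.4 and 19.8 CPM in AxR libraries. Its AxR libraries were all below 31.5 CPM, the lowest P value. On the log2 scale the difference was -0.67 ± 0.0832 (SE; edgeR adjusted p = 4.47e-06), from -0.73 to -0.61 as each library was dropped.

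Lck, the kinase of the T cell receptor (ENSMUSG00000000409.14, chr4:129548344-129573641, minus strand), was near the lower end of what was tested, with 35, 46 and 38 estimated counts in P and 32, 25 and 40 in AxR libraries. These were 2.13, 2.66 and 2.48 CPM in P and 2.03, 1.59 and 2.28 CPM in AxR libraries, and the lines overlapped. A log2 difference of -0.29 ± 0.22 (SE; edgeR adjusted p = 0.26, exact permutation p = 0.2) did not pass, and at this depth a change of its size could not be separated from none. Dropping single libraries gave -0.41 to -0.16, the latter without AxR replicate 2. Fgr, a kinase of granulocytes and macrophages (ENSMUSG00000028874.14, chr4:132974095-133001910, plus strand), was without a single count in all 6 libraries. That allows up to between 0.171 and 0.196 CPM per library, the level of 3 counts, for counting error only. Of the relatives that the rule left out, Blk and Srms also had no count, and Ptk6 had at most 1 count in a library.

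Frk, a SRC-like kinase found mainly in epithelial cells (ENSMUSG00000019779.15, chr10:34483399-34611278, plus strand), rose. It had 38.5, 29.4 and 38.5 CPM in P libraries and 61.9, 64.0 and 53.1 CPM in AxR libraries, without overlap. P replicate 2 was the lowest of all. It rose 1.68-fold, by 0.75 ± 0.105 on the log2 scale (SE; edgeR adjusted p = 5.88e-05), and by 0.63 to 0.83 as each library was dropped. Of the 7 epithelial markers tested 6 were also higher in AxR cells, among them Epcam and Krt8, by 0.78 and 0.68 on the log2 scale. The other 1, Krt19, had a log2 fold change of -1.31. The part of these markers in the difference in Frk was not tested.

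Among the inhibitory regulators, Csk and its adaptor fell. Csk, the main kinase of the regulatory tail (ENSMUSG00000032312.7, chr9:57626646-57653631, minus strand), had 86.7, 87.6 and 86.6 CPM in P and 62.2, 59.1 and 57.2 CPM in AxR libraries. The P libraries differed by about 1 CPM, and every AxR library was over 20 CPM below them. AxR cells had 68.4% of the P level, or -0.55 ± 0.0544 on the log2 scale (SE; edgeR adjusted p = 4.57e-07), and -0.58 to -0.52 as each library was dropped. Pag1, which recruits Csk to membrane rafts (ENSMUSG00000027508.15, chr3:9687479-9833679, minus strand), had 5.65, 7.22 and 5.93 CPM in P and 4.19, 3.44 and 3.36 CPM in AxR libraries. It was far less abundant than Csk and did not overlap between the lines. AxR cells had 58.3% of the P level, or -0.78 ± 0.157 on the log2 scale (SE; edgeR adjusted p = 4.85e-04), and dropping single libraries gave -0.88 to -0.66.

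Matk, the relative of Csk known from blood cells and brain (ENSMUSG00000004933.17, chr10:81252935-81263365, plus strand), had the highest log2 fold change of the set on the fewest counts. There were 11, 9 and 11 estimated counts in P libraries and 16, 37 and 23 in AxR libraries, or 0.669, 0.520 and 0.717 CPM against 1.02, 2.36 and 1.31 CPM. AxR replicate 2 lay well above the others. Matk rose by 1.29 ± 0.365 on the log2 scale (SE; edgeR adjusted p = 0.00618), and without AxR replicate 2 the difference was 0.88 and no longer passed (edgeR adjusted p = 0.0552). The other fits that left out 1 library gave 1.16 to 1.52, with an edgeR adjusted p of at most 0.0283. Over the alternatives that kept all libraries the adjusted p did not exceed 0.0161, reached with DESeq2. With 10 counts required in every library, Matk was not tested.

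**Figure D2:**
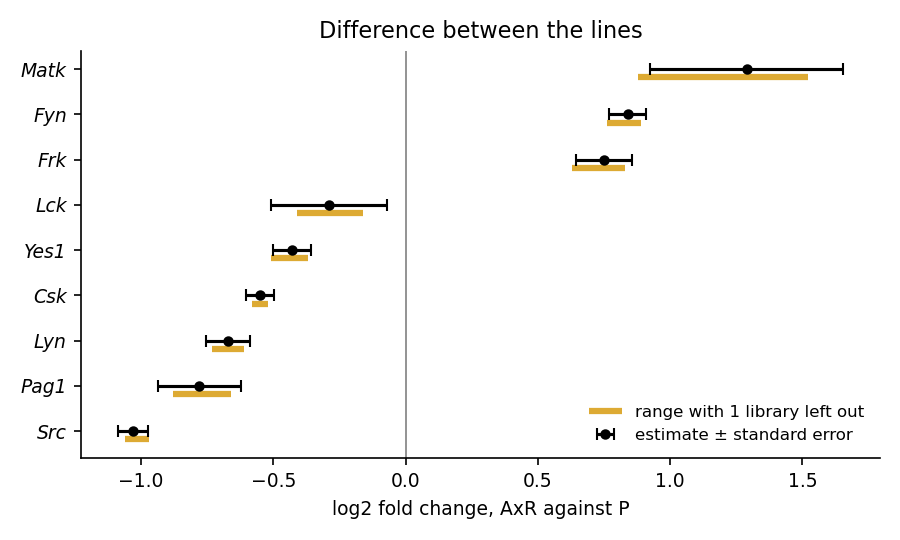
Log2 fold change of AxR against P cells for the 9 members tested, as points with standard errors, with the range over the fits that leave out 1 library as yellow lines. Src at -1.03 and Matk at 1.29 are the extremes, Matk has the widest range, and for Lck, which did not pass the test, the standard error is 0.22 around -0.29.

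Comparison of levels between members needs a value per length. TPM, transcripts scaled to a fixed total per library, was computed here from the estimated counts and the union of annotated exons. In P cells the mean order was Src at 150 TPM, Csk at 78.1 TPM, Yes1 at 54.7 TPM, Fyn at 35.5 TPM, Lyn at 28.4 TPM and Frk at 22.7 TPM, and the 3 libraries of each did not overlap those of the next. Lck at 2.77 TPM and Pag1 at 2.20 TPM overlapped each other, and Matk was lowest at 0.464 TPM. In AxR cells the order was Src at 70.6 TPM, Fyn at 60.8 TPM, Csk at 51.2 TPM, Yes1 at 38.9 TPM, Frk at 36.4 TPM and Lyn at 17.1 TPM. The AxR libraries of Src and Fyn overlapped, as did those of Yes1 and Frk. Against all tested genes, the mean TPM of Src went from the 92.2 to the 81.9 percentile and that of Fyn from the 64.3 to the 78.9 percentile. In AxR cells the length used changes which members overlap, while the order of the kinases by mean share stays the same. With the longest annotated transcript, Yes1 held 24.4%, 22.6% and 21.2% of the summed kinase TPM in AxR replicates 1 to 3. Frk then held 15.3%, 15.5% and 12.8%. Fyn per Csk was 0.977, 1 and 1.23 in these libraries, against 1.08, 1.11 and 1.37 with exon unions.

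The make-up of the family changed more than its total. In P replicates 1 to 3, Src made up 50.7%, 53.5% and 49.0% of the summed TPM of the 7 kinases, and in AxR replicates 1 to 3 it made up 29.3%, 31.9% and 32.3%. Fyn made up 11.8%, 12.6% and 11.8% in P and 26.2%, 24.9% and 29.5% in AxR libraries. The share of Frk was 8.43%, 6.41% and 8.26% in P and 17.1%, 17.2% and 14.2% in AxR libraries. For these 3 kinases the lines did not overlap. Yes1 kept a like share, with 18.6% ± 1.83 in P and 17.3% ± 1.29 in AxR cells (SD, n = 3 each), although its level fell. Lyn went from 9.66% ± 0.658 to 7.57% ± 0.657 (SD, n = 3 each), also without overlap of the lines. The ratio of Fyn to Src, in which library size cancels out, was 0.232, 0.236 and 0.240 in P and 0.892, 0.781 and 0.913 in AxR libraries. The mean ratio was thus 3.65 times as high in AxR cells, while Src stayed above Fyn in each library. With the longest annotated transcript as length, the ratio was 0.977, 0.855 and 0.999 in AxR libraries, so Src and Fyn were then nearly level in AxR replicates 1 and 3. No test was run on these shares and ratios.

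**Figure D3:**
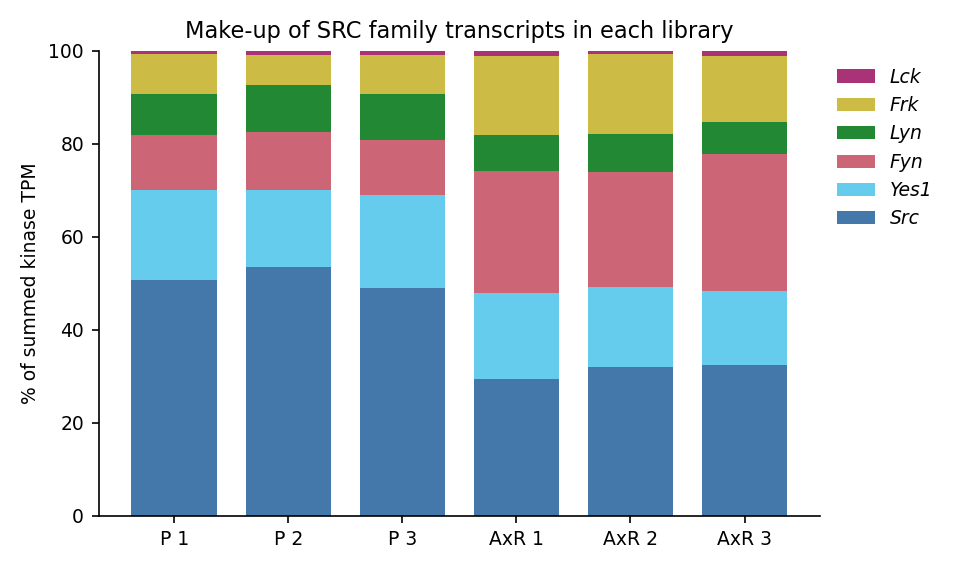
Share of each kinase in the summed TPM of the SRC family kinases, in percent, for each of the 6 libraries as stacked bars. Src takes from 49.0% to 53.5% of the bar in P and from 29.3% to 32.3% in AxR libraries, and the parts of Fyn and Frk are larger in every AxR library.

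The summed TPM of the 7 kinases was 297, 296 and 290 in P and 212, 227 and 239 in AxR libraries, so the total was lower in each AxR library. Kinases with a cysteine codon at position 3, in the sequences printed above, made up 41.2% ± 1.32 of this sum in P and 52.7% ± 1.5 in AxR cells (SD, n = 3 each). Of these 5 kinases Fyn alone took a larger share beyond the spread between libraries, by 14.8 percentage points, while the mean shares of Yes1 and Lyn changed by -1.31 and -2.09 points, that of Lck by 0.0143 points, and Fgr had no count. Csk itself had 79.1, 79.3 and 75.9 TPM in P and 51.2, 50.8 and 51.4 TPM in AxR libraries. Since kinases and Csk both fell, the summed kinase TPM per TPM of Csk moved less, from 3.75, 3.73 and 3.82 to 4.14, 4.47 and 4.64. By single kinase the values parted: Src per Csk was 1.92 ± 0.0634 in P and 1.38 ± 0.148 in AxR cells, and Fyn per Csk was 0.454 ± 0.015 and 1.19 ± 0.157 (SD, n = 3 each). These are ratios of transcripts, and neither protein nor tail phosphorylation of these kinases was measured in the files used here.

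All 3 members that rose, Fyn, Frk and Matk, are on chromosome 10, whose 670 tested genes had a median log2 fold change of 0.25, with 52.5% higher and 16% lower in AxR cells. The end of Frk and the start of Fyn are 4.76 Mb apart, while Matk lies much further along the chromosome, from position 81252935. Among the 50 tested genes closest to Fyn in gene order, 25 to each side, the median was 0.56 and 33 had a lower log2 fold change than Fyn. For Frk the median was 0.47 and 33 of 50 were lower. With each member counted in its own neighborhood, 44 genes, Fyn and Frk included, belonged to both. Around Matk the median was 0.18 and 45 of 50 were lower than Matk. Around Src the median was -0.40, and 3 of 50 fell further than Src. Around Csk the median was -0.37 and 12 of 50 were lower than Csk, and around Yes1 it was -0.06 and 10 of 50 were lower than Yes1. Pag1 and Lyn stood at the bottom of theirs: 0 of the 36 and 0 of the 27 genes available had a lower value, with medians of 0.43 and -0.14. The part of the regional shifts in these differences was not tested.

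Promoter sequences are given for Src, the member that fell most, and for Fyn and Frk, which rose and lie near each other, to show what kind of promoter each has. They run from 250 bases before to 50 after the annotated start in RefSeq (GRCm38.p6), which had an entry for 8 of the 10 members. They lie at chr2:157424043-157424342 (plus strand) for Src, chr10:39369549-39369848 (plus strand) for Fyn and chr10:34483150-34483449 (plus strand) for Frk. Capitals mark GC boxes, searched as GGGCGG on both strands.
Src: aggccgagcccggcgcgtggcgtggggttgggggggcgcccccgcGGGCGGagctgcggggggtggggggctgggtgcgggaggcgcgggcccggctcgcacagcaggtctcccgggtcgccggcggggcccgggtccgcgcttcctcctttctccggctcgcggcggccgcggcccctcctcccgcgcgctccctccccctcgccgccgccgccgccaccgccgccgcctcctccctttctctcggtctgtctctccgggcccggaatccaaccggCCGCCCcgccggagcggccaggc
Fyn: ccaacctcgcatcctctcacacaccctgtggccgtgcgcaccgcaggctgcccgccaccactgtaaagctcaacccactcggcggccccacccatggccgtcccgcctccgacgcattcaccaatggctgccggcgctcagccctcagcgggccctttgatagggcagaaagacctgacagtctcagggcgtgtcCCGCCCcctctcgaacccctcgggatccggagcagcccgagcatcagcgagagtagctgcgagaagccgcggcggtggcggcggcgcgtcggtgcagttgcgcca
Frk: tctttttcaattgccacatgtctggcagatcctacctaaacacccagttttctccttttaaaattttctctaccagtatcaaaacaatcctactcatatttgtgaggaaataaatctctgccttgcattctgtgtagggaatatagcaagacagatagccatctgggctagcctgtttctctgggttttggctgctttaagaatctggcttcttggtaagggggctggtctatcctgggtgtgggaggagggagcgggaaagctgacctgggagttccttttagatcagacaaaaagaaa

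The Src window held 47 CpG dinucleotides, more than 98.6% of RefSeq promoters do, and 2 GC boxes. The Fyn window held 31 CpG dinucleotides, 1 GC box and 1 CCAAT box (searched as CCAAT on both strands). The Frk window held 1 CpG dinucleotide and neither motif, and 5.43% of promoters have fewer. No TATAAA was found in these 3 on either strand. Of 32851 promoter windows, 35.7% had a GC box, 37.4% a CCAAT box and 13.6% a TATAAA. Fyn and Frk, which both rose, had unlike windows, while Src and Fyn, which moved in opposite directions, were both rich in CpG. The Src window starts at position 157424043, inside the gene, whose annotated start in GENCODE is 157418444. The Fyn window starts at position 39369549, also inside its gene, which starts at 39368855 in GENCODE. Which starts these cells use was not measured, and the part of the promoters in these differences was not tested.

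Other genes that act on SRC family kinases were taken from lists of roles. Of the 11 Csk adaptors and negative regulators 9 were tested, and 2 rose and 4 fell, with a median log2 fold change of -0.57. The lowest was Ptpn22, a phosphatase that partners with Csk in lymphocytes, at 62.8 ± 4.12 CPM in P and 4.63 ± 0.598 CPM in AxR cells (SD, n = 3 each) and a log2 difference of -3.75 (edgeR adjusted p = 2.42e-13). Ptpn12, a phosphatase that acts on the SRC substrate p130Cas, went from 171 ± 5.85 CPM down to 86.9 ± 2.40 CPM (SD, n = 3 each). Cbl and Socs3, named after their values were seen, had log2 fold changes of -0.71 and -0.58. Dok1, an adaptor phosphorylated by these kinases, and Cblb, a ubiquitin ligase, rose by 0.73 and 0.69 on the log2 scale.

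Of 8 phosphatases that act on the kinases or their signals 7 were tested, and 2 rose and 3 fell, with a median log2 fold change of -0.08. Ptpn6 (SHP-1), best known from blood cells, was at 3.95 ± 0.0871 CPM in P and 15.3 ± 0.186 CPM in AxR cells (SD, n = 3 each), a log2 difference of 1.95. The leukocyte markers Cd68 and Cd14 were also higher in AxR cells while most others were at or near 0, and their part in this difference was not tested. Ptpra, which removes the phosphate from the regulatory tail, had a log2 fold change of 0.45. Ptpre, its relative, and Ptpn1 had log2 fold changes of -0.71 and -0.60, and that of Ptpn11, named after its value was seen, was -0.43. All 5 passed the test (adjusted p from 8.59e-10 to 9.20e-06 from edgeR).

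Of 9 genes for lipid modification, traffic and chaperones, all tested, 3 rose and 1 fell, with a median log2 fold change of 0.08. Nmt2, an N-myristoyltransferase, was at 158 ± 4.38 CPM in P and 73.0 ± 2.16 CPM in AxR cells (SD, n = 3 each), a log2 difference of -1.11, while the other such enzyme, Nmt1, had 156 ± 4.40 and 165 ± 9.38 CPM (SD, n = 3 each) and did not pass (adjusted p = 0.217 from edgeR). Hsp90ab1, a chaperone of many kinases, rose by 0.80 on the log2 scale, Unc119, which binds the myristoylated end of SRC family kinases, by 0.67, and Cdc37, named after its value was seen, by 0.50.

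Of 25 substrates and adaptors 24 were tested, and 7 rose and 13 fell, with a median log2 fold change of -0.28. Of the 7, Vav2, named after its value was seen, was closest to the threshold (log2 difference 0.17, edgeR adjusted p = 0.0454). With TMM, library size only, no low-count filter, the replicate block or DESeq2, 6 rose. The count was also 6 without P replicate 1, 2 or 3 or without AxR replicate 2, and Vav2 did not pass in any of these fits or without AxR replicate 3. Cav1, the caveola protein and an early known SRC substrate, was at 75.8 ± 6.72 CPM in P and 9.65 ± 1.41 CPM in AxR cells (SD, n = 3 each), a log2 difference of -2.98. Afap1, an actin-binding partner of SRC, had a log2 fold change of -1.02. Nedd9, an adaptor of the p130Cas family, was at 17.2 ± 1.46 CPM in P and 37.4 ± 3.58 CPM in AxR cells (SD, n = 3 each), a log2 difference of 1.12, and Gab1 rose by 0.58 on the log2 scale. Beside the shares of all genes that were higher (32.8%) or lower (30.8%), these counts are a description of the lists.

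**Figure D4:**
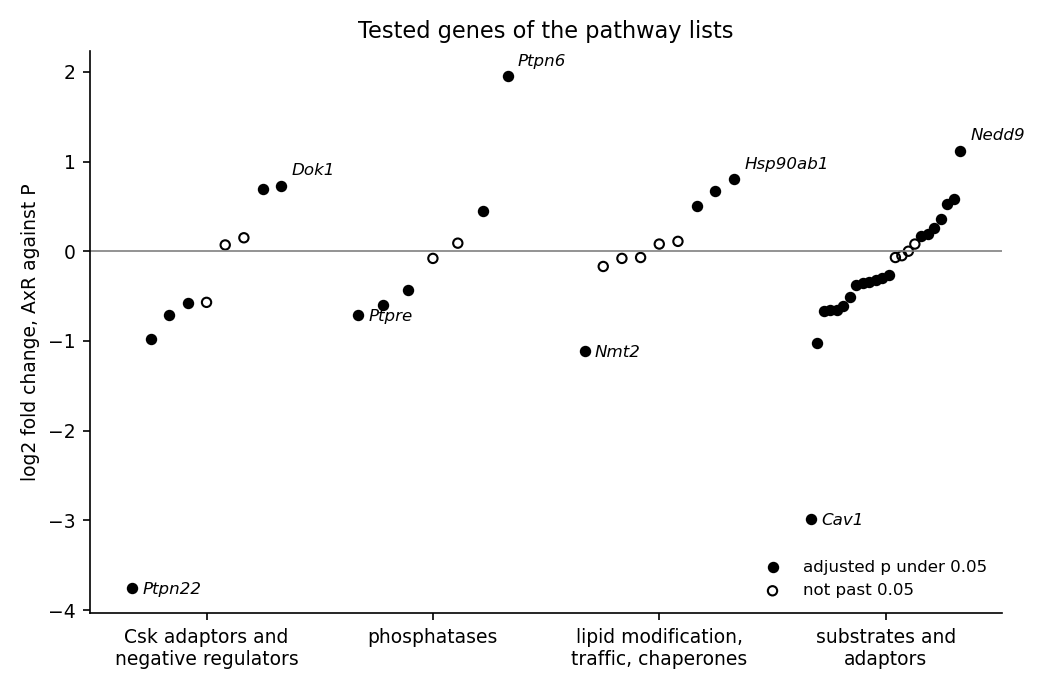
Log2 fold change of AxR against P cells for every tested gene of the 4 lists of roles, each sorted from low to high, with filled points past an adjusted p of 0.05. Ptpn22 at -3.75 and Cav1 at -2.98 lie furthest below 0 and Ptpn6 at 1.95 furthest above.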

How the data were processed

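Stranded, poly(A)-selected RNA libraries of the 6 samples were made and sequenced by the study's authors, 3 per line, and lines were assigned from the sample labels. The authors used STAR 2.6.0a for alignment to GRCm38 and RSEM 1.3.1 for estimated counts per gene. In their own work they filtered these counts and applied upper-quartile normalization in edgeR. The deposited counts used here are without filtering or normalization. RSEM splits ambiguous reads by likelihood, so values need not be whole. The strand setting of the counting is not given in the sources used here.

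Here the estimated counts were rounded to whole numbers, and the 13550 genes that passed filterByExpr were kept. Upper-quartile factors were applied, and edgeR 4.0.16 (R 4.3.3) compared the lines by quasi-likelihood with no other term and an adjusted p threshold of 0.05. The standard error of a log2 fold change was its absolute value divided by the square root of the quasi-likelihood F statistic. The test was tried on simulated counts. CPM used the normalized library sizes. Exact permutation tests used log2 CPM with a pseudocount of 0.5. Symbols, positions and lengths came from GENCODE M21, in which 53360 of 53465 identifiers were found. RSEM's own lengths were not used here, so TPM rest on exon unions. Coding sequences came from M21 transcripts.

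Members and lists were chosen with earlier results of these data known. All members were named, with the 2 highest and 2 lowest called genes of each list, and the 3 genes most like Src and Fyn. Alternatives were TMM, library size only, DESeq2 1.42.0, limma-voom (limma 3.58.1), other filters, a replicate block, a 2-fold threshold, another length and each library left out. The depth of 15495260 to 17294525 counts per library puts 3 counts at 0.171 to 0.196 CPM.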

Additional observations from a re-analysis of the deposited data

How the results depend on the processing

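When a change of 1 or more on the log2 scale was required as well, 1 member was higher (Matk) and 1 lower (Src). Under this rule the Csk adaptors and negative regulators had 0 higher and 1 lower, the phosphatases 1 and 0, the lipid, traffic and chaperone genes 0 higher, and the substrates 1 and 2. Each of these counts of 0 was also 0 by DESeq2, by limma-voom and at an unadjusted edgeR p under 0.05 with the same fold, while at an unadjusted p under 0.05 alone the counts were 2, 3 and 3. With single libraries left out, 1 to 2 lipid, traffic and chaperone genes were lower: 2 without P replicate 2 (Lypla1 added) or AxR replicate 1 (Hsp90aa1 added), both named after their values were seen. The other counts for members and lists moved by at most 1 gene: members higher were 2 with 10 counts required in every library (Matk not tested) or without AxR replicate 2 (Matk not passing). For single members, 115 of the alternative values stayed on the same side of the threshold with the same sign, and 1, Matk without AxR replicate 2, did not. Replicate numbers did not pair the libraries (correlations from -0.0217 to -0.0061), and with the replicate block 3 members were higher and 5 lower. Lck, Matk and Pag1, below 10 CPM, are the members that depth limits most.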

Other observations

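Genes whose log2 CPM followed a member most closely over the 6 libraries were ranked by Pearson's r, as a description. Nearest to Src were BC029722, Fxyd5 and Faf2, each with r = 0.9998, and nearest to Fyn were Srf, Tent5b and Trappc8, with r of 0.9995, 0.9993 and 0.9987. As the libraries fall into 2 lines, r mostly reflects the difference between them, and 2140 and 1786 genes had an r over 0.95 with Src and Fyn.

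Reads shared between family members would blur their values. The coding sequences of Src and Fyn were 67.6% identical in alignment, with no identical run over 17 bases, and those of Fyn and Yes1 were 68.6% identical, with no run over 22 bases. The longest run shared by any 2 of the kinases was 23 bases, in Src and Fgr and in Lyn and Lck. Shared runs were searched in coding sequences only. Estimated counts were whole in all 6 libraries for 8 of the 10 members, among them Fgr, which had no count. For Yes1 and Lyn they lay within 0.22 and 0.17 of a whole number. Transcripts annotated within or across the members had at most 20.2 counts in a library.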
